A study of Homo sapiens with 6 samples.

Results

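The 10 genes described here encode serine proteases of the epithelial cell surface, the inhibitors that hold them in check, the plasminogen activators and the receptors that proteases switch on. They are SPINT1, SPINT2, ST14, PRSS8, TMPRSS4, PLAU, PLAUR, PLAT, F2RL1 and F2R, taken by symbol from a table of 20356 gene IDs, and all 10 were found. The samples were 3 RNA-seq libraries of H1975 OR, a derivative of the human lung adenocarcinoma line H1975 that is resistant to osimertinib and was kept with 1 µM of this inhibitor of mutant EGFR, and 3 libraries of parental H1975, grown in the same medium under normal conditions. The design text calls the 3 libraries of each group biological replicates, and a single resistant derivative was sequenced, so resistance, the drug and other features of this derivative cannot be told apart. Levels are given in FPKM, a fragment count divided by transcript length and library size, and read depth is unknown.

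In an epithelium, matriptase (ST14) and prostasin (PRSS8) are membrane-anchored trypsin-like proteases that cleave growth factors, adhesion molecules, the sodium channel and the protease-activated receptor F2RL1. They are bound and inhibited by the transmembrane Kunitz-type inhibitors encoded by SPINT1 and SPINT2, and this balance is known to maintain the epithelial barrier. The urokinase system runs beside it: urokinase (PLAU), held at the surface by its receptor (PLAUR), and tissue plasminogen activator (PLAT) turn plasminogen into plasmin.

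RefSeq promoter sequences (GRCh38.p14, 250 bases before to 50 after the annotated start) were matched for 4 of the 10 genes, SPINT1, F2RL1, PLAUR and PLAU, and all 4 are shown so that the start regions of genes with lower levels in resistant cells can be compared. The SPINT1 window lies at chr15:40843798-40844097 on the plus strand, F2RL1 at chr5:76818780-76819079 on the plus strand, PLAUR at chr19:43670120-43670419 on the minus strand and PLAU at chr10:73910360-73910659 on the plus strand. Capitals mark matches to the AP-1 motif TGANTCA or to the E-box CACCTG, read on both strands.
SPINT1: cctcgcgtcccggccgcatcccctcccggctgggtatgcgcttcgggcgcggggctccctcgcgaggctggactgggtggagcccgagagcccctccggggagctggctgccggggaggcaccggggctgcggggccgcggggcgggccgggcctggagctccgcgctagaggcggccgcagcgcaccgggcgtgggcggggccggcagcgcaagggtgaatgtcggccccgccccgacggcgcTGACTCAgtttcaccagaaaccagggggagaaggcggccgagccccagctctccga
F2RL1: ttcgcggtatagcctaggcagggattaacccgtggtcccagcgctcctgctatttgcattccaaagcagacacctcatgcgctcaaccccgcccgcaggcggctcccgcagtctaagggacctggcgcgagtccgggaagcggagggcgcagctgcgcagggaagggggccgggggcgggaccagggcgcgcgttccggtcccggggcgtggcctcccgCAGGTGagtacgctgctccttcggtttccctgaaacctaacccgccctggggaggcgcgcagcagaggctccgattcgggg
PLAUR: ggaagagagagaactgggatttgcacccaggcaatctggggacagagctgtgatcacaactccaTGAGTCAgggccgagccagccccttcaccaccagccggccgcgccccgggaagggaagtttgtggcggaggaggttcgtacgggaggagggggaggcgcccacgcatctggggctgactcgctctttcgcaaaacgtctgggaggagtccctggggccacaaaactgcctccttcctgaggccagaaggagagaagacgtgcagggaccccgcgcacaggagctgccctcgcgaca
PLAU: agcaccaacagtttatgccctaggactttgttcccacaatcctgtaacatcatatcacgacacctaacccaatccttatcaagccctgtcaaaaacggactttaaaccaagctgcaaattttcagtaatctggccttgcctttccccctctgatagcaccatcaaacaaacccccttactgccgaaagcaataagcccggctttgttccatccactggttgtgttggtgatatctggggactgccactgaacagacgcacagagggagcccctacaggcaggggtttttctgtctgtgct
The SPINT1 window held 38 CpG dinucleotides, the F2RL1 window 31, the PLAUR window 18 and the PLAU window 5, against a median of 14 over 35116 promoters of the same length. An AP-1 match began 6 bases before the start of SPINT1 and 186 bases before that of PLAUR, and 7.71% of all promoters held such a match. An E-box match began 31 bases before the start of F2RL1, and 20.6% of all promoters held one. SPINT1 and F2RL1 each also had 3 matches to the GC box GGGCGG on either strand, a motif in 45.0% of all promoters, while PLAUR and PLAU had 0. These matches describe the letters of the window and not binding. A single window was taken per gene, and any other start of a gene was not examined.

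The inhibitor genes SPINT1 and SPINT2, the matriptase gene ST14 and the receptor gene F2RL1 were far lower in resistant than in parental cells, PLAT was higher, and F2R did not pass the test. Of the 10 genes, 9 reached a mean of 1 FPKM in resistant or parental cells and were tested (limma on log2(FPKM + 1), Benjamini-Hochberg adjustment over all 12107 genes tested). Of these, 7 fell, 1 rose and 1 did not pass an FDR of 0.05. Among all tested genes 78.0% passed, 38.1% lower and 39.9% higher in resistant cells, so a call alone sets few genes apart in this comparison. The changes of the called members were large: on the log2 scale 7 fell by 1 or more, against 9.39% of all tested genes, and 1 rose by as much, against 9.95%. The median difference of the 9 genes was -2.43, against 0.01 over all tested genes, whose 5th and 95th percentiles were -1.40 and 1.43. The groups of libraries did not overlap for 8 of the 9, against 79.8% of all tested genes. SPINT1, ST14, PRSS8 and F2RL1 reached a mean of 1 FPKM in parental cells only, so they could enter the test only as lower. With that mean required in both groups, 5 members were tested, of which 3 fell and 1 rose. TMPRSS4 was below the level tested. In bulk RNA, fewer cells with a transcript and less transcript per cell cannot be told apart.

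**Figure D1:**
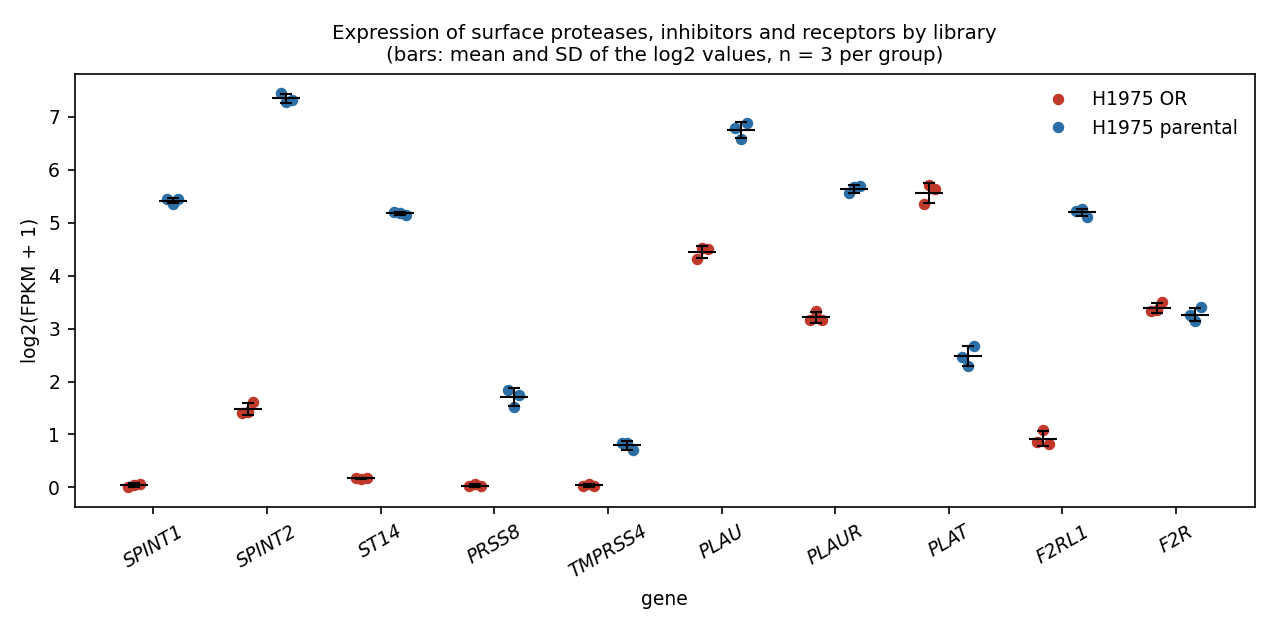
Level of each gene as log2(FPKM + 1) in each of the 3 H1975 OR libraries (red, left) and the 3 parental libraries (blue, right), with the mean and SD of the log2 values. Resistant and parental points are separate for every gene shown except F2R, and PLAT is the gene whose resistant libraries are the higher ones.

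SPINT1, which encodes the Kunitz-type inhibitor of matriptase, hepsin and HGF activator, lost almost all of its transcript. It was listed at 0 FPKM in resistant replicate 1, with 0.0306 in replicate 2 and 0.0509 in replicate 3, against 42.7, 40.0 and 42.6 FPKM in the parental libraries. The mean base coverage behind these values was between 0 and 0.440 in the resistant libraries and between 270.3 and 387 in the parental ones. All resistant libraries were near 0 and the parental ones were close to each other. The difference was -5.38 ± 0.064 (SE) on the log2(FPKM + 1) scale (limma adjusted p = 1.1e-14). It was -8.38 with a pseudocount of 0.1, since the added 1 limits the change of a gene near 0. SPINT1 lies at 15:41136216-41150405 in GRCh37.

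SPINT2 encodes the related transmembrane inhibitor, which acts on matriptase and prostasin. It was at 1.65, 1.69 and 2.07 FPKM in the resistant libraries and at 173, 154 and 159 FPKM in the parental ones. Resistant cells thus kept a low level in every library, and the parental mean was 89.9 times the resistant one. Its parental FPKM was the highest of the 10 genes, but its base coverage was not. The parental coverage of SPINT2 was 184, 123.5 and 129.1, against 1108, 714 and 896.5 for PLAU. The difference of -5.86 ± 0.073 ranked 6th by size among all tested genes, with SPINT1 12th and ST14 21st. That order belongs to the log2(FPKM + 1) scale. With a pseudocount of 0.1 the differences were -8.38 for SPINT1, -7.28 for ST14 and -6.42 for SPINT2.

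ST14, the matriptase gene (11:130029457-130080271), was at 0.130, 0.113 and 0.136 FPKM in resistant replicates 1 to 3 and at 36.0, 35.1 and 34.4 FPKM in the parental libraries. All resistant libraries were far below all parental ones, and the difference had a 95% interval of -5.14 to -4.87 on the log2(FPKM + 1) scale (limma adjusted p = 1.4e-14). In parental cells the enzyme gene and its inhibitor gene were thus of similar level: the FPKM ratio of SPINT1 to ST14 was 1.19, 1.14 and 1.24. In the resistant libraries, where both genes were near 0, this ratio was 0, 0.271 and 0.374. The FPKM ratio of SPINT2 to ST14 was 12.6, 15 and 15.2 in the resistant libraries, against 4.81, 4.39 and 4.63 in the parental ones. Base coverage put SPINT2 below ST14 in the parental libraries, at 184, 123.5 and 129.1 against 429.9, 307.8 and 310.3. In the resistant libraries the coverage was low for both, at 1.157, 0.9405 and 1.44 for SPINT2 and 1.125, 0.8795 and 1.272 for ST14. The size of this ratio thus depended on the measure.

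PRSS8, the gene of the lipid-anchored protease prostasin, was low in both groups. It was at 0.0149, 0.0421 and 0.0133 FPKM in resistant cells and at 2.59, 1.86 and 2.35 FPKM in parental cells, with a coverage of at most 0.254 in the resistant libraries. It fell by 1.67 ± 0.087 (limma adjusted p = 2.6e-09), and the difference was -4.26 with a pseudocount of 0.1. TMPRSS4, another membrane-spanning serine protease gene, was at 0.0160, 0.0427 and 0.0196 FPKM in resistant libraries and at 0.793, 0.800 and 0.626 FPKM in parental libraries. Its groups did not overlap, but no parental library reached 1 FPKM. Tested with no filter on low values, TMPRSS4 had a difference of -0.76 ± 0.044 (limma adjusted p = 2.4e-05).

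**Figure D2:**
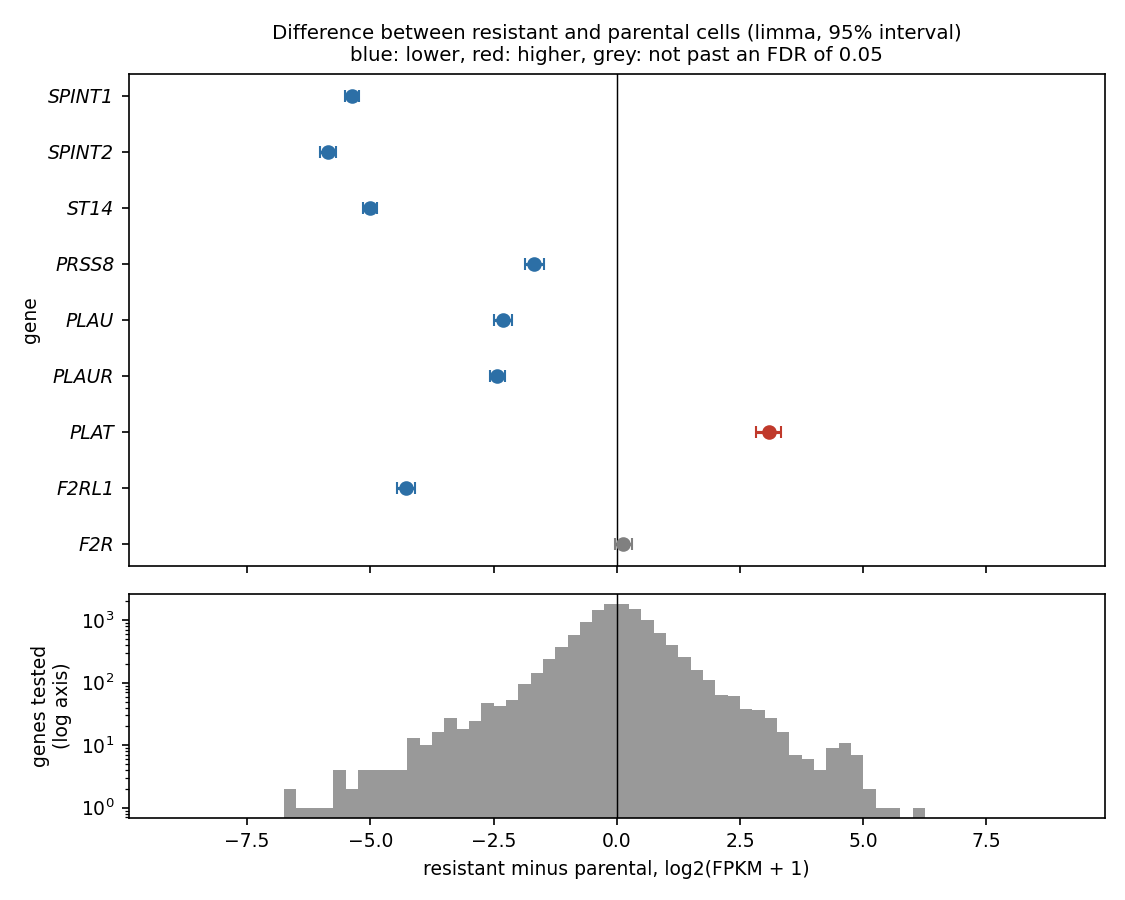
Upper panel: difference between H1975 OR and parental cells for the 9 tested genes on the log2(FPKM + 1) scale, with 95% intervals from limma. Lower panel: the same difference for all 12107 tested genes on a log count axis. SPINT2 at -5.86, SPINT1 at -5.38 and ST14 beside them lie in the far left tail, and F2R lies near 0.

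The plasminogen activation genes moved in opposite directions. PLAU, the urokinase gene (10:75668935-75677255), was at 18.9, 21.9 and 21.5 FPKM in resistant libraries and at 109.5, 94.95 and 117 FPKM in parental libraries. PLAUR, the gene of its lipid-anchored receptor (19:44150247-44174699), was at 7.95, 9.10 and 7.90 FPKM in resistant libraries and at 46.0, 50.3 and 50.8 FPKM in parental libraries. Unlike the matriptase genes, both stayed clearly expressed after the fall. PLAU fell by 2.31 ± 0.084 (limma adjusted p = 1.5e-10) and PLAUR by 2.43 ± 0.070 (limma adjusted p = 1.1e-11). The parental mean was 5.16 times the resistant mean for PLAU and 5.89 times for PLAUR. The FPKM ratio of PLAU to PLAUR was accordingly 2.38, 2.41 and 2.73 in resistant libraries and 2.38, 1.89 and 2.31 in parental libraries, ranges that met at 2.38.

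PLAT, the gene of tissue plasminogen activator (8:42032236-42065242), was the only tested gene of the 10 to rise. It was at 39.9, 51.7 and 48.4 FPKM in resistant libraries and at 4.55, 3.93 and 5.35 FPKM in parental libraries. Every resistant library was far above every parental one, and the ratio of the means was 10.1. The difference was 3.09 ± 0.113 (limma adjusted p = 5.0e-09), ranking 189th by size among all tested genes. PLAT made up 67.9%, 70.2% and 69.2% of the summed FPKM of both activator genes in the resistant libraries, against 3.99%, 3.97% and 4.37% in the parental ones. The sum itself was 58.9, 73.6 and 69.9 FPKM in resistant cells and 114, 98.9 and 123 FPKM in parental cells. Base coverage put PLAT below PLAU in the resistant libraries too, at 59.6, 67.2 and 76.9 against 129.1, 135.9 and 156.8. Which of these genes was the larger in resistant cells thus depended on the measure. In the parental libraries the coverage was 9.66, 5.95 and 8.07 for PLAT and 1108, 714 and 896.5 for PLAU.

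**Figure D3:**
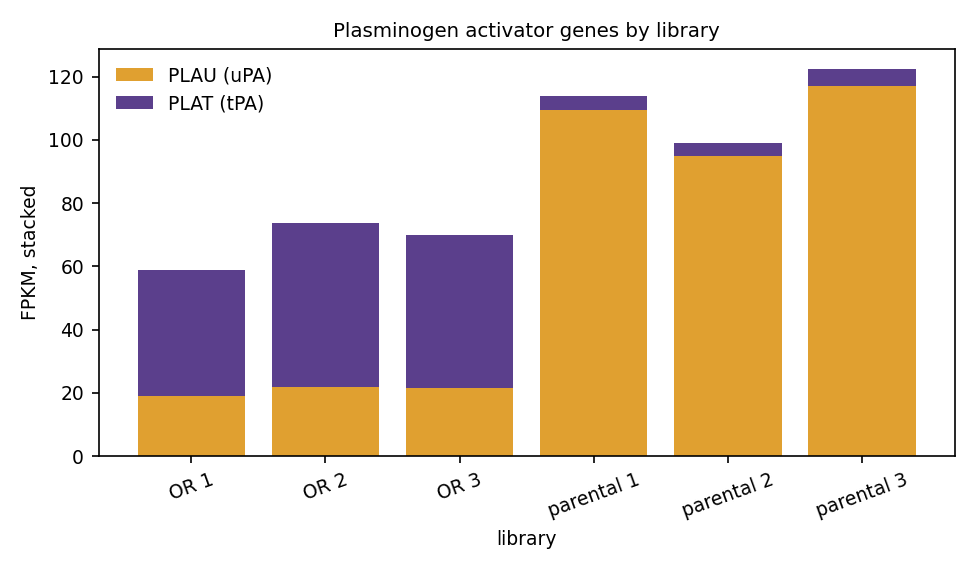
FPKM of the plasminogen activator genes PLAU and PLAT, stacked, in the 3 H1975 OR libraries (left) and the 3 parental libraries (right). PLAT is the larger share of each resistant bar, at 67.9% to 70.2%, and at most 4.37% of each parental bar. By base coverage, not drawn here, PLAU was above PLAT in every library.

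The protease-activated receptor genes parted. F2RL1 encodes a receptor that trypsin-like proteases, matriptase among them, switch on by cutting its outer end. It was at 0.814, 1.11 and 0.762 FPKM in resistant libraries and at 36.1, 37.1 and 33.6 FPKM in parental libraries. All resistant libraries were low, the parental mean was 39.7 times the resistant one, and the difference was -4.27 ± 0.079 (limma adjusted p = 2.4e-13). F2R, the gene of the thrombin receptor, was at 9.07, 9.17 and 10.3 FPKM in resistant libraries and at 8.497, 7.83 and 9.59 FPKM in parental libraries. The groups overlapped, and the difference of 0.13 did not pass (limma adjusted p = 0.1551), with a 95% interval of -0.04 to 0.30. Without parental replicate 3 it was 0.20 and passed (limma adjusted p = 0.0378). F2RL2, a further receptor gene of this family and fixed by name, was below the level tested, at 0.402, 0.389 and 0.471 FPKM in resistant libraries and 0.0475, 0.0343 and 0.0172 FPKM in parental libraries.

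The order of FPKM levels differed between the cell populations. In resistant cells PLAT led with a mean of 46.7 ± 6.05 FPKM (SD, n = 3), followed by PLAU at 20.8 ± 1.62, F2R at 9.52 ± 0.688 and PLAUR at 8.32 ± 0.681. The ranges of F2R and PLAUR overlapped. SPINT2 followed at 1.80 ± 0.232 and F2RL1 at 0.897 ± 0.190, then ST14 at 0.127 ± 0.0121. SPINT1, TMPRSS4 and PRSS8 were last, between 0.0234 and 0.0272 on average, and did not differ beyond their spread. In parental cells SPINT2 came first at 162 ± 9.83 FPKM, then PLAU, PLAUR, SPINT1, F2RL1, ST14, F2R, PLAT, PRSS8 and TMPRSS4. Of these parental neighbours, F2RL1 at 35.6 ± 1.84 and ST14 at 35.1 ± 0.787 FPKM overlapped. Base coverage gave another order within each population. In resistant libraries it was highest for PLAU (129.1 to 156.8), then F2R (83.5 to 109.4) and PLAT (59.6 to 76.9). In parental libraries it was highest for PLAU (714 to 1108), then F2RL1 (364.5 to 523.7), ST14 (307.8 to 429.9) and SPINT1 (270.3 to 387.3). SPINT2 at 123.5 to 184, F2R at 79.2 to 116.9 and PLAUR at 67.5 to 84.7 followed.

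The chromosomal neighbours of the 10 genes mostly did not share the size of their change. F2R and F2RL1 lie 83.2 kb apart on chromosome 5 (5:76011868-76031606 and 5:76114758-76131140), yet their differences were 0.13 and -4.27. Beyond F2RL1, the angiogenic factor gene AGGF1 had a difference of -0.27. PRSS8 (16:31142756-31147083) lies 0.042 kb from KAT8, an acetyltransferase gene, whose difference was 0.03. The neighbours of SPINT1 are not reported here. ST14 lies between APLP2, which rose by 1.19, and ZBTB44, at 0.00. The neighbours of PLAU were at -0.19 (CAMK2G) and 0.20 (VCL), and those of PLAT at 0.17 (AP3M2) and 0.37 (IKBKB). The calls of CAMK2G and AP3M2 ended in 6 alternatives each.

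Some neighbours did fall. C19orf33, 11.5 kb from SPINT2 (19:38734675-38783254), fell by 0.93, and DPF1 on its other side was at 0.18, a call that ended when resistant replicate 3, parental replicate 1 or parental replicate 2 was left out (limma adjusted p = 0.0591 to 0.1025). Both neighbours of PLAUR fell, ZNF428 by 0.79 and SMG9 by 1.56. Of the genes nearest to TMPRSS4 (11:117947753-117992605), the protease gene TMPRSS13 fell by 1.87 and MPZL3 by 1.22. The antisense transcript RP11-532F12.5, chosen after its values were seen, shares 370 bases with the start of SPINT1. It was listed at 0, 0 and 0.0414 FPKM in resistant libraries and at 7.56, 6.84 and 6.89 FPKM in parental libraries. Whether counting used strand is not given in the sources used here, so its reads and those of SPINT1 cannot be told apart in the shared bases. The same holds for C10orf55, which overlaps PLAU on the other strand and was at 0.498 to 0.798 FPKM in resistant libraries and 0.583 to 0.956 FPKM in parental libraries.

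**Figure D4:**
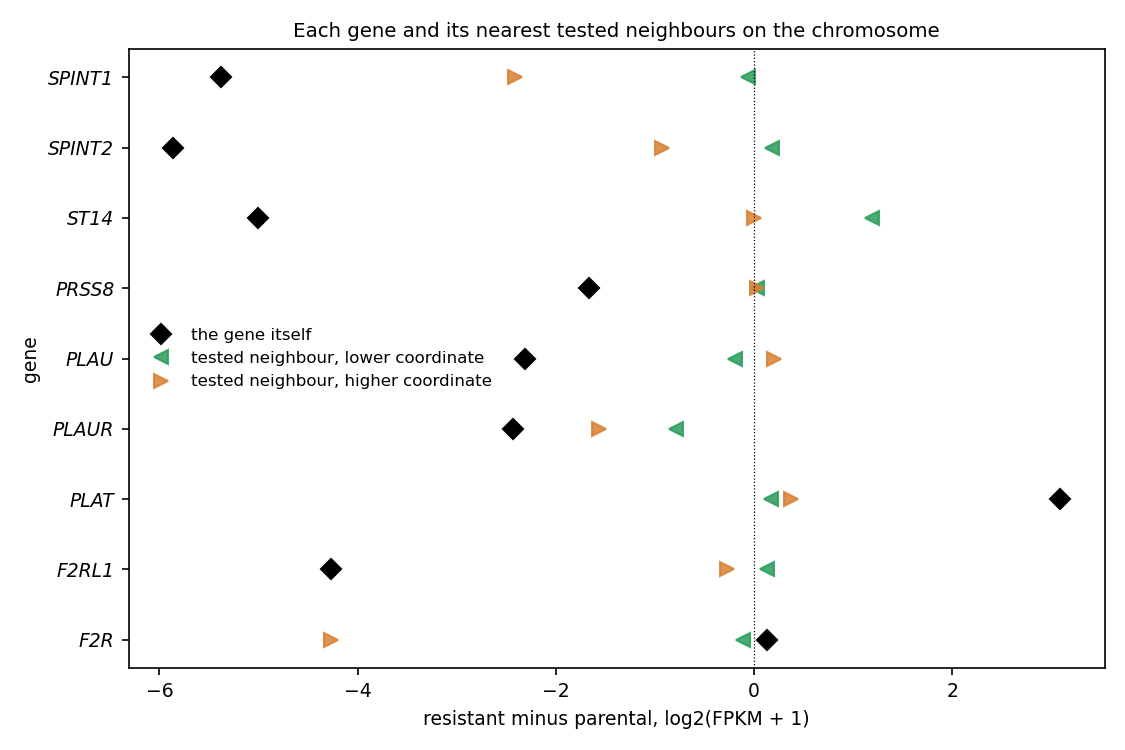
Difference between H1975 OR and parental cells on the log2(FPKM + 1) scale for each tested gene (diamond) and its nearest tested neighbour at lower (left-pointing) and higher (right-pointing) coordinates. Most neighbours lie nearer 0 than the gene itself, and F2R is the exception, beside F2RL1 at -4.27.

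Genes with the most similar levels over the 6 libraries were found by Euclidean distance of log2(FPKM + 1). For SPINT2, the member with the largest fall on this scale, these were EPCAM (distance 1.13), CRABP2 (1.23) and CDH3 (1.57). EPCAM is an epithelial adhesion molecule, CRABP2 binds retinoic acid and CDH3 is P-cadherin. For PLAT they were S100A3 (0.46), a calcium-binding protein gene, C1S (0.47), a complement serine protease gene, and HTRA1 (0.55), a secreted serine protease gene. S100A3 was at 50.04 ± 4.71 FPKM in resistant cells and 3.83 ± 0.153 in parental cells, and C1S at 53.1 ± 6.86 FPKM in resistant cells and 4.81 ± 1.31 in parental cells (SD, n = 3 each). With 2 groups, such distances mostly record the level in each group.

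Other genes of the pericellular protease network were examined through 5 lists of 93 genes in all, of which 51 were tested. Of these 22 rose, 28 fell and 1 did not pass, and on the log2 scale 13 were higher and 21 lower by 1 or more. The share called was 98.0%, against 78.0% of all tested genes, and the median difference was -0.76, against 0.01.

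Among 10 tested genes of 19 other surface serine proteases, 5 rose and 4 fell, with a median of 0.40. Of all tested genes, 39.9% rose and 38.1% fell. PRSS22, an epithelial tryptase gene, fell to 0.0579 ± 0.0611 FPKM in resistant cells, against 16.3 ± 1.14 in parental cells (SD, n = 3 each). TMPRSS13, a membrane-spanning protease gene, was at 0.0356 ± 0.0143 FPKM in resistant cells and 2.80 ± 0.239 in parental cells. TMPRSS3, of the same family, went the other way, with 7.88, 9.94 and 10.6 FPKM in resistant libraries and 0.0180, 0 and 0.0102 FPKM in parental libraries. Its difference was 3.36 ± 0.094 (limma adjusted p = 8.7e-12). In resistant cells TMPRSS3 averaged 9.46 ± 1.41 FPKM, above every other membrane-spanning protease gene of the list.

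Of 17 secreted serine protease genes only 2 were tested. HTRA1 rose to 47.2 ± 9.42 FPKM in resistant cells, against 3.71 ± 0.221 in parental cells. The kallikrein gene KLK6 was listed at 0, 0.0176 and 0 FPKM in resistant libraries and was at 4.73, 3.56 and 2.55 FPKM in parental libraries. PLG, the gene of plasminogen itself, had 0 FPKM listed in all 6 libraries and was picked for this value.

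All 17 tested genes of 27 other inhibitors passed, against 78.0% of all tested genes. Of the 17, 9 were higher and 8 lower, with a median of 0.44. SERPINB2, an inhibitor of urokinase, rose to 27.1 ± 4.48 FPKM in resistant cells, against 0.0499 ± 0.0124 in parental cells, a difference of 4.73 ± 0.099 (limma adjusted p = 1.7e-12). TFPI2, a secreted Kunitz-type inhibitor gene, rose by 3.69 ± 0.126, with 15.2 ± 3.32 FPKM in resistant cells and 0.235 ± 0.0651 in parental cells. SERPINB5, the maspin gene, fell by 4.12 ± 0.066.

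All 11 tested genes of 15 receptors and cofactors passed, against 78.0% of all tested genes. Of the 11, 4 were higher and 7 lower, with a median of -0.78. ITGB1, an integrin subunit that the urokinase receptor binds, rose by 2.61 ± 0.062, and LRP1, an endocytic receptor, by 2.24 ± 0.111. ANXA2, whose product gathers plasminogen and its activator at the surface, fell to 368.5 ± 27.5 FPKM in resistant cells, against 906 ± 19.5 in parental cells.

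All 11 tested genes of 15 substrates and their partners passed, against 78.0% of all tested genes. Of the 11, 3 were higher and 8 lower, with a median of -1.07. EPCAM, which matriptase cleaves, was at 1.28, 0.985 and 0.807 FPKM in resistant libraries and at 219, 221 and 193 FPKM in parental libraries. CLDN7, a claudin that binds EpCAM, was at 8.69 ± 1.58 FPKM in resistant cells and 127 ± 3.21 in parental cells. The receptor genes MST1R and MET, whose ligands these proteases activate, fell by 1.69 ± 0.067 and 1.01 ± 0.063. HGF, the ligand of MET, was listed at 0, 0.00849 and 0.0261 FPKM in resistant libraries and at 0 in every parental library.

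**Figure D5:**
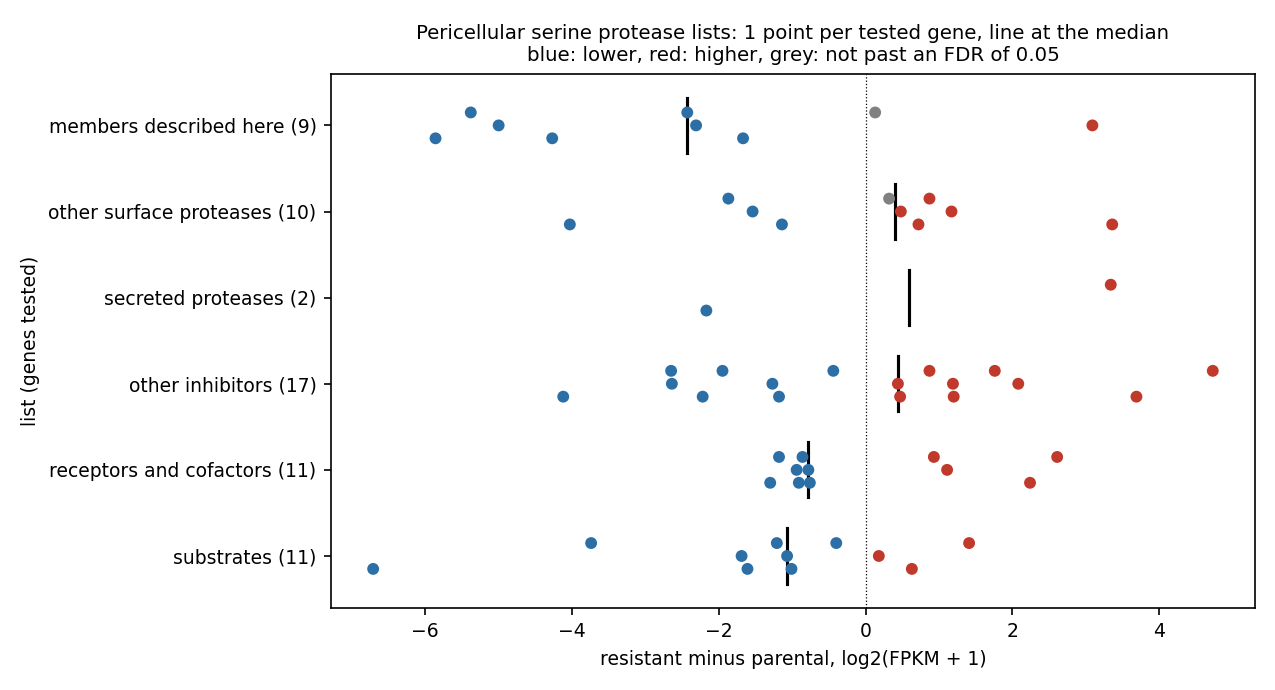
Difference between H1975 OR and parental cells on the log2(FPKM + 1) scale for the tested genes of the group described here and of the 5 lists, with a line at each median. Inhibitors run from SERPINB5 at -4.12 to SERPINB2 at 4.73, whereas 7 of the 9 genes described here lie below -1.

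The labelled lung epithelial identity was set against 12 markers. Of 9 tested, 8 fell, 0 rose and 1 did not pass, where 38.1% of all tested genes fell. The summed level of the 12 markers was 942 to 1019 FPKM in resistant libraries and 3147 to 3644 FPKM in parental libraries. KRT19, a keratin gene of simple epithelia, was at 4.58 ± 0.741 FPKM in resistant cells and 574 ± 71.8 in parental cells, and CDH1, the E-cadherin gene, at 0.0248 ± 0.0135 FPKM in resistant cells and 68.6 ± 3.72 in parental cells. KRT8 had the smallest fall of the 8, by 0.40 on the log2 scale, to 384 ± 19.5 FPKM in resistant cells, against 508 ± 34.0 in parental cells. NKX2-1, the lung lineage factor, was listed at 0 in each resistant library and averaged 26.7 ± 2.72 FPKM in parental cells, and the surfactant genes SFTPB and SFTPC were below 0.1 FPKM on average in both groups. Over 10 genes, markers of other cell types summed to 29.7 to 37.0 FPKM in resistant libraries and 3.75 to 4.70 FPKM in parental libraries. Of these genes, 3 were tested and all 3 rose, where 39.9% of all tested genes rose. CD14 made up most of the sum, at 26.8 ± 3.05 FPKM in resistant cells and 2.67 ± 0.646 in parental cells. PDGFRB was at 3.94 ± 0.445 FPKM in resistant cells and 0.0444 ± 0.0149 in parental cells. The defining markers PTPRC and LUM were below 0.1 FPKM on average in both groups, and CD3E and DCN were listed at 0 in all 6 libraries. Apart from these measurements, the part of other cells in the results was not tested. Rank correlations between libraries were 0.9947 to 0.9962 within groups and 0.8456 to 0.8538 between groups.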

How the data were processed

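RNA from 6 libraries of cultured cells was sequenced, 3 per group, and groups were taken from the sample titles. Reads were mapped to GRCh37 and DESeq was used in an unnamed role, per the submitters' processing notes. In the sources used here the aligner, quantifier, annotation and strand setting are not given. The authors deposited FPKM in a series table, and per library the FPKM, the TPM (summing to 1000000) and the base coverage signal of each gene, per the file headers. The 60 values of the 10 genes were the same in both kinds of file within 0.00001 FPKM.

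No read counts were used, so no counting interval is given, and a listed 0 need not mean absence: 10 genes had 0 in a library beside over 5 FPKM in another of its group. The 12107 genes whose resistant or parental mean reached 1 FPKM were tested two-sided with limma (version 3.58.1, R 4.3.3). Values entered as log2(FPKM + 1), group was the sole term, moderation was robust with an intensity trend, and p-values were adjusted by Benjamini-Hochberg to an FDR of 0.05. The step was tested on simulated data. Differences are resistant minus parental and understate the change of low genes. Gene positions come from the deposited files (GRCh37, 1-based), and promoter windows are GRCh38.p14 from RefSeq.

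The members and lists were chosen with earlier results of these data known. Named genes were all members, the 3 largest changes of each list, 7 genes fixed by name, the nearest tested neighbours and the 3 genes most like the member with the largest fall and that with the largest rise. Clone names were passed over, results for some genes named by this rule are not reported here, and PECAM1 of the marker list was not analysed here. Alternatives changed the pseudocount, filter, scaling, moderation and unit, added the replicate number as a block, or left out each library. No library stood apart and the labels give no batch.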

Additional observations from a re-analysis of the deposited data

How the results depend on the processing

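Across 9 tested genes, 112 of 113 alternative values kept their direction and their side of an FDR of 0.05 in limma, and the other was F2R without parental replicate 3, given above. When a mean of at least 1 FPKM was required in both groups, 4 members passed of 5 tested, 3 lower and 1 higher. SPINT1, ST14, PRSS8 and F2RL1 were then no longer tested. Of all genes, 8217 of 10829 tested passed with this filter. With no filter, and with the deposited TPM, 9 of 10 members passed, TMPRSS4 among them. Of all genes tested, 11014 of 18038 passed with no filter and 10172 of 12971 with the TPM. Leaving out each replicate in turn gave 8 to 9 members and 8985 to 9261 genes past an FDR of 0.05. With the replicate block, 8 members and 9422 genes passed, against 8 and 9448 without it. Deviations of same-numbered libraries from their group means had correlations of -0.135, 0.076 and 0.099, against -0.161 to 0.078 between different numbers. Deviations within a group sum to 0, so these values cannot show whether the numbers pair. The numbers were not treated as pairs. The other counts of genes ran from 8217 of 10829 tested with the filter on both groups to 11014 of 18038 tested with no filter. Depth in reads is unknown, which limits what can be said of SPINT1, PRSS8 and TMPRSS4 in resistant cells.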
